A study of Solanum lycopersicum with 6 samples.

Results

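Among the gene models of tomato leaf, 178 gave many reads in RNA sequencing and very few ribosome footprints for that amount of RNA. They were chosen on the measured values themselves. CPM is a model's count over the library total, times 1000000. A member had at least 5 CPM in both mRNA libraries, and its mean CHX level and its mean LTM level were each at most 1/32 of its mean mRNA level, which is 3.125%. Of 35768 models in the table, 9179 reached the mRNA minimum, and the 178 members are 1.94% of those. The CHX limit alone was met by 285 of the 9179 and the LTM limit alone by 182, so 107 models met only the first and 4 only the second.

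Ribosome profiling digests an extract with RNase and sequences the short stretches of RNA that stayed shielded, and a footprint is taken to mark RNA that a ribosome was holding. Whether the few footprints of the members came from ribosomes was not tested. An mRNA in use carries many ribosomes along its coding region. Ribosomal, transfer and small nuclear RNAs, long non-coding RNAs and RNA fragments are not read as coding sequence, and total RNA that is depleted of ribosomal RNA, rather than selected for poly(A) tails, can keep part of them. Which kind of RNA the reads of the members came from was not tested, and a low ratio of footprints to RNA is not by itself a measure of poor translation.

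The series holds 6 libraries from leaves of Solanum lycopersicum, 2 of each of 3 kinds. Plants grew at 28 °C in cycles of 12 h light, and the labels give their age as 3 weeks in one field and 2 weeks in another, with no genotype or cultivar stated. CHX libraries are footprints from extracts made with 100 µg/ml of cycloheximide, which stops elongating ribosomes of the cytosol. The mRNA libraries were made from aliquots of that extract, as total RNA with its rRNA removed. LTM libraries are footprints from LTM-treated leaves, an abbreviation the labels do not spell out, with puromycin added to the extract, and the series gives them as initiating ribosomes. Footprints of both kinds were cut from gels at 26 to 32 nt. No mRNA of LTM-treated leaves was analysed here. Nothing says whether replicates came from separate plants, so any spread between them may be technical. Library totals ran from 18240140 to 48704200 counts. The count columns cover the transcript region in the mRNA libraries and the coding region in the CHX and LTM libraries, so a read outside the coding region could count in mRNA alone.

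The count table gives identifiers without gene names, and the RefSeq gene table used here has 0 entries with such an identifier, so members are given by identifier and without a function. The 2 digits after Solyc are called the ID block here. In the naming scheme of the tomato genome they give the chromosome, with 00 for sequence not placed on one, and the digits after g follow the order of loci along it. CPM is not divided by transcript length, so the order of members below is one of reads and not of molecules.

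The members were spread widely in level. Their mean mRNA level ran from 5.12 to 90615 CPM, with a median of 38.2 and quartiles of 13.6 and 192, against a median of 16.4 CPM over all 9179 models at the mRNA minimum. By class, 36 members lay at 5 to 10 CPM, 81 at 10 to 100, 46 at 100 to 1000, 10 at 1000 to 10000 and 5 at 10000 CPM or more. They made up 1.34% of the models at 5 to 10 CPM, 1.43% at 10 to 100, 6.38% at 100 to 1000, 9.43% at 1000 to 10000, and 5 of the 12 models at 10000 or more. The most read model of the mRNA libraries was a member, as were 4 of the first 10, 7 of the first 20 and 14 of the first 100.

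**Figure D1:**
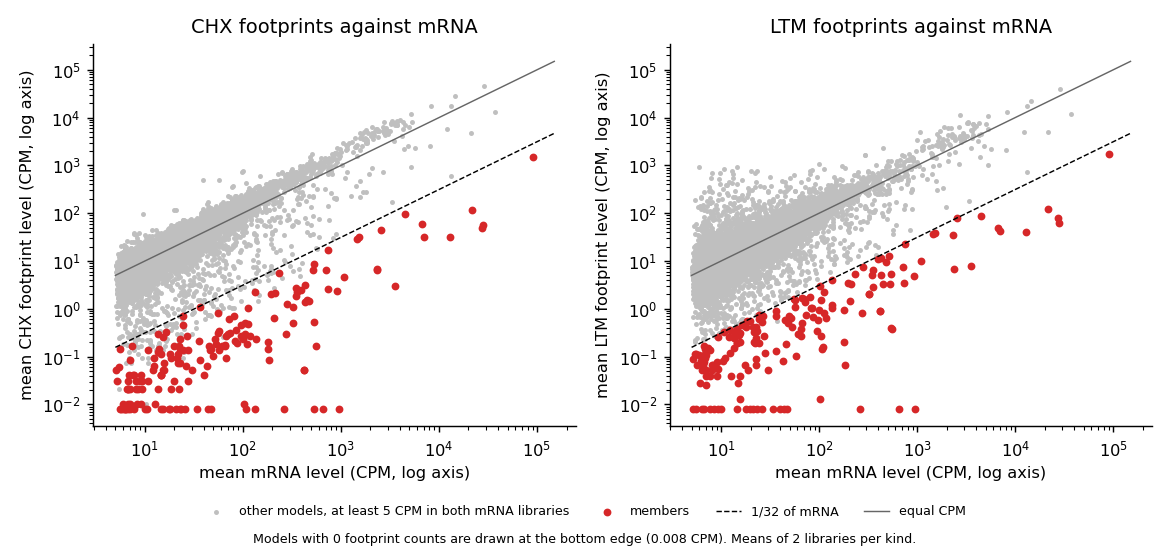
Mean footprint level (CPM, log axis) against mean mRNA level (CPM, log axis) for CHX on the left and LTM on the right, each point 1 model and each value a mean of 2 libraries. The 178 members (red) lie on or under the dashed line at 1/32 of the mRNA level by the rule that chose them, and the other models with at least 5 CPM of mRNA (grey) lie mostly around the line of equal CPM.

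The members together took a large part of the reads of each mRNA library. Their share was 27.1% of counts in mRNA replicate 1 and 19.4% in replicate 2, a mean of 23.2% ± 5.48 (SD, n = 2). The same models took 0.225% and 0.201% of the CHX libraries, a mean of 0.213% ± 0.0175, and 0.242% and 0.280% of the LTM libraries, a mean of 0.261% ± 0.0270. These differences follow from the rule and were not tested. The 5 members at 10000 CPM or more held 21.8% of mRNA replicate 1 and 14.3% of replicate 2, which was 80.5% and 73.7% of all member reads there. The other 173 members held 5.28% and 5.10%, a mean of 5.19% ± 0.128, so the gap between the mRNA libraries lay with the 5.

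**Figure D2:**
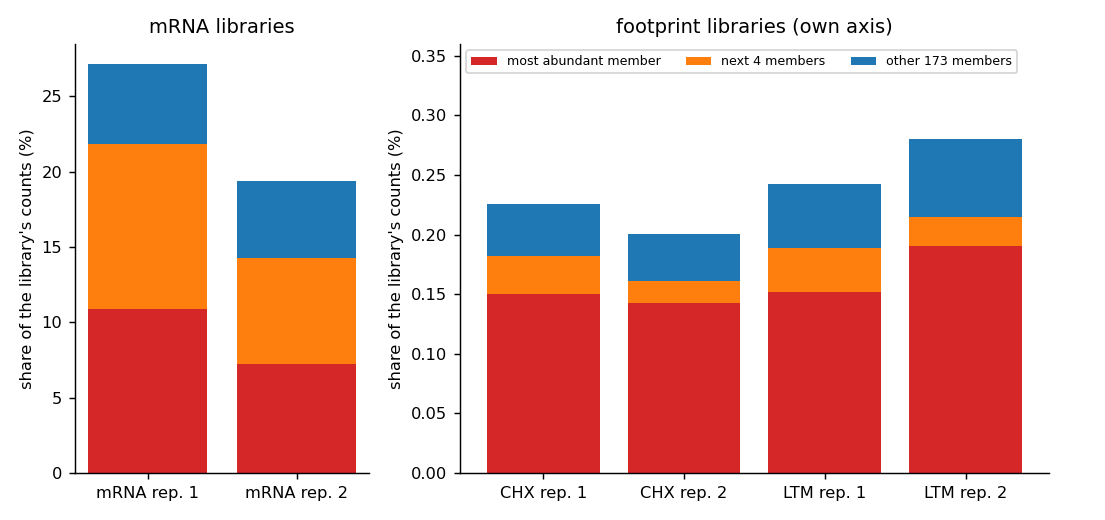
Share of each library's counts (%) held by the members, stacked as the most abundant member, the next 4 and the other 173, with the 2 mRNA libraries on the left and the 4 footprint libraries on their own axis on the right. The 173 members take 5.28% and 5.10% of the mRNA libraries, while the first 5 take 21.8% and 14.3%.

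Solyc05g016120.2.1 led the members and the mRNA libraries, at 108911 and 72320 CPM in mRNA replicates 1 and 2. Its footprints came to 1499 and 1426 CPM in CHX and to 1521 and 1903 CPM in LTM, 1.61% and 1.89% of its mean mRNA level. It stood high in every kind of library, and it alone gave 62.8% to 71.1% of the footprint counts of all members in the 4 footprint libraries. Those counts are many enough (141258 in CHX) for counting error to be negligible.

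For Solyc01g048590.2.1 the mRNA libraries read 34505 and 21423 CPM, with 60.7 and 52.2 CPM in CHX, and 75.2 and 51.8 CPM in LTM. Solyc11g056340.1.1 stood at 32774 and 21647 CPM in mRNA, 71.7 and 26.3 CPM in CHX, and 104.9 and 50.8 CPM in LTM. Next came Solyc12g039030.1.1, at 27533 and 15828 CPM in mRNA, 143 and 91.2 CPM in CHX, and 141 and 108 CPM in LTM. All 3 were lower in replicate 2 than in replicate 1 in each kind of library. Their footprint levels were 0.180% to 0.541% of mRNA in CHX and 0.227% to 0.574% in LTM, below the 1.61% and 1.89% of the leading member.

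Solyc02g021290.1.1 stood at 14600 and 11358 CPM in mRNA, 45.8 and 18.9 CPM in CHX, and 48.0 and 32.8 CPM in LTM. Solyc11g013780.1.1 stood at 6977 and 7144 CPM in mRNA, 48.0 and 14.9 CPM in CHX, and 53.8 and 30.6 CPM in LTM. The mRNA libraries of the second were close while its CHX libraries differed by more than 3-fold.

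Solyc09g091100.3.1 stood at 6030 and 7393 CPM in mRNA, 59.3 and 60.5 CPM in CHX, and 44.2 and 55.7 CPM in LTM. Solyc05g013160.3.1 stood at 4602 and 4300 CPM in mRNA, 89.3 and 107 CPM in CHX, and 90.7 and 87.7 CPM in LTM. The first was higher in replicate 2 in each kind of library, and the second kept 2.21% of its mRNA level in CHX.

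The mRNA libraries also differed in a way that split the members by level. The 5 members at 10000 CPM or more were all higher in replicate 1, by a median log2 ratio of replicate 2 to replicate 1 of -0.60. All 12 models at that level, these 5 included, had a median of -0.25, and 7 of the 12 were higher in mRNA replicate 1. Of the 5 members, 4 were higher in replicate 1 in all 3 kinds of library. That pattern held in 4 of the 15 members at 1000 CPM or more (26.7%) and in 8 of all 178 members (4.49%). It held in 8.04% of the 9179 models at the mRNA minimum and in 8.74% of the 103 models at 1000 CPM or more that are not members. Of the 10 members at 1000 to 10000 CPM, 6 were higher in mRNA replicate 1, with a median of -0.18. In the classes below 1000 CPM the medians were 0.10 to 0.13, against 0.23 over the 9179 models. A smaller share of replicate 2 in the leading members raises the CPM of everything else. The models that are not members rose by 0.15 on the log2 scale as a share of the library, less than the 0.23 of the 9179 models. How much of the shift comes from those shares was not tested. With 1 library against 1 none of these differences has a test.

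Members lay further from the usual ratio between the mRNA libraries than models at large. Around the median of the 9179 models, the median absolute log2 difference was 0.26 in the members and 0.15 in the 9179, and 9 members (5.06%) against 0.458% differed by more than 1. The log2 ratio of members ran from -1.15 to 2.28. Its median was 0.10 in the members against 0.23 over the 9179 models, so these distances also take in that offset. The 2 sets were not matched by mRNA level here. In CHX, 6 of the 15 members at 1000 CPM or more were at least 1.5-fold higher in replicate 1, against 2.19% of the 9179 models and 3.88% of the 103 models at that mRNA level that are not members. For LTM these figures were 2 of 15, 5.16% and 2.91%. Only the replicate 1 direction was counted, and some of the 15 went the other way. One stood at 3.84 and 9.72 CPM in CHX replicates 1 and 2 and at 11.1 and 60.1 CPM in LTM. No label ties libraries of different kinds to one plant or batch by their replicate number.

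**Figure D3:**
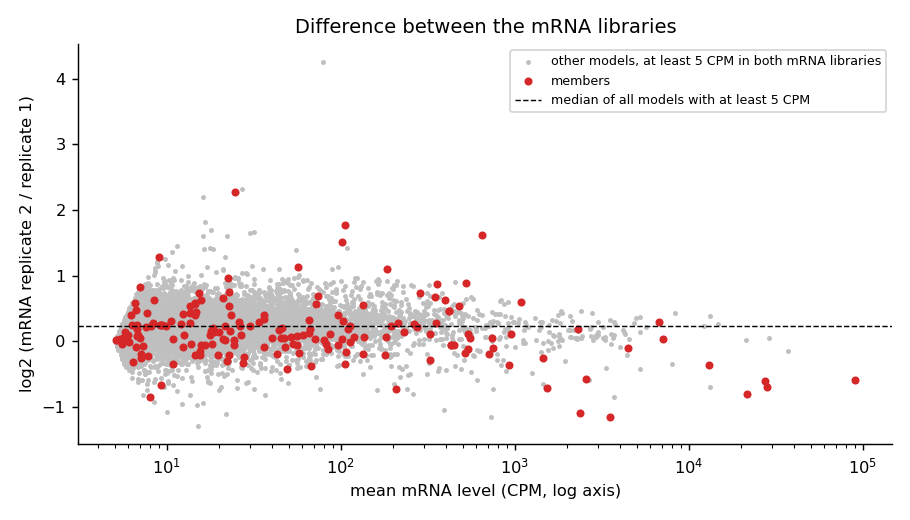
Log2 ratio of mRNA replicate 2 to replicate 1 against mean mRNA level (CPM, log axis), each point 1 model, with members in red and other models with at least 5 CPM in grey. The dashed line is the median of the 9179 models at 0.23, and the 5 members at 10000 CPM or more lie below 0.

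Residual footprints were scarce in most members. Summed over the 4 footprint libraries, the members had 359305 counts, but the median member had 34, 53 members had fewer than 10, and 18 had at least 1000. The median level was 0.135 CPM in CHX and 0.314 CPM in LTM. As a share of the mRNA level, CHX had a median of 0.311% (quartiles 0.127% and 0.611%) and LTM one of 0.862% (quartiles 0.314% and 1.91%). Over all 9179 models at the mRNA minimum the medians were 107% and 111%. The CHX share differed between mRNA classes, from a median of 0.249% at 10000 CPM or more to 0.669% at 1000 to 10000 CPM, with 0.278% to 0.334% in the classes below. The LTM share was 0.312% in the highest class and 0.727% to 1.22% in the others.

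Footprint levels of members rose with their mRNA. Spearman's rho across the 178 members was 0.71 for mRNA and CHX, 0.74 for mRNA and LTM, and 0.90 for CHX and LTM. These are descriptions over models of the same libraries, the mRNA came from the CHX extract, and the rule bounds footprints by the mRNA level, which by itself favours such a rise.

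No footprint at all was counted for 15 members. Their mRNA ran from 5.53 to 953 CPM with a median of 23.5, and 12 of the 15 had under 50 CPM. The third highest had 263 CPM on average. A count of 0 allows up to 3 counts over both libraries of a kind, or 0.0311 CPM in CHX and 0.0524 CPM in LTM, so the mRNA level of each of the 15 was at least 178-fold above CHX and at least 106-fold above LTM. These limits cover counting error only, since the labels mention no molecular identifiers on the reads. A further 13 members had LTM counts and no CHX count, and 6 had CHX counts and no LTM count.

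Membership near the limit often rests on few counts. The exact Poisson 95% interval of the footprint counts reached above 1/32 of mRNA in 31 members, in LTM for all 31 and in CHX for 4, and 25 of the 31 had under 100 CPM of mRNA, where 117 members lie. For the other 147 the whole interval stayed within the limit. These intervals leave out the spread between libraries. With every footprint library held to 1/32 of the lower mRNA library, 141 members remained. Just inside, the higher of the footprint shares was 3.12%, 3.06% and 3.06% of mRNA, and just outside it was 3.15%, 3.18% and 3.19%. At the mRNA minimum, the 3 members with least had 5.08, 5.08 and 5.12 CPM in their lower library, and the 3 models that missed it while meeting the footprint limits had 4.96, 4.77 and 4.59 CPM.

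Choosing in one set of replicates and reading in the other gave values that the choice of models did not use. The rule itself was set with earlier results of these data known. By the rule on the replicate 1 libraries alone, 187 models were chosen. In the replicate 2 libraries their median CHX level was 0.399% of mRNA and their median LTM level 0.872%, and 148 of the 187 (79.1%) met the rule there too. By the rule on the replicate 2 libraries alone, 172 models were chosen. In replicate 1 their medians were 0.218% and 0.731%, and 148 (86.0%) met the rule there. All 187 and all 172 stayed within 1/8 of mRNA in both kinds of footprint in the libraries not used, with the highest single value at 12.2%. Whether the replicates are separate plants is not known, so this shows repetition between these libraries.

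The rule limits CHX and LTM against mRNA but does not set them against each other. The comparison of the 2 still uses values that chose the members. Since 107 models met only the CHX limit and 4 only the LTM limit, the limits cut into the members' LTM against CHX values. In that comparison most members told apart by the test below were higher in LTM, and 133 of the 178 gave no call. On CPM, the mean LTM level was above the mean CHX level in 139 members and below it in 24. Models at large leaned to LTM as well on library totals, with a median fitted log2 fold change of 0.26. Both LTM libraries were above both CHX libraries in 92 members (51.7%), where 46.8% of the 20806 models tested below had that order, and both were below in 8 (4.49%), against 22.3%. In edgeR's quasi-likelihood test over the whole table, 42 of the 178 members (23.6%) were higher in LTM and 3 (1.69%) lower, at a Benjamini-Hochberg adjusted p under 0.05. Over all 20806 models tested, 22.4% were called higher and 19.6% lower, so the members' share of higher calls was near the background. Among the 9179 models at the mRNA minimum the shares were 14.1% and 34.3%. Scaled to total counts instead of TMM, 69 members were higher and 1 lower, and 5812 of all models were higher and 1228 lower. All 178 entered the test through their mRNA counts, and 133, among them most of the 53 with fewer than 10 footprint counts, gave no call. Some of the 42 higher calls rest on very few footprints, such as 0 counts in CHX and 4 in LTM. The fit takes its spread from all 3 kinds of library, the mRNA included, so calls on so few counts are uncertain.

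The median fitted log2 fold change of LTM against CHX was 0.85 in the members, -0.01 over all models tested and -0.29 over the 9179. Neither wider set was chosen by limits on CHX and LTM as the members were. They are thus no matched background, and the difference between these medians was not tested. Fitted values of models at 0 counts depend on the fit's prior count. With a kind at 0 placed at its limit of 3 counts, the median was 0.88 over the 163 members with any footprint, and -0.02 over all such models. It was 0.86 over the 144 members counted in both kinds. Without LTM replicate 2 the members' median fell to 0.39, with -0.04 over all models, so its size rests in part on that library. The 50 members with at least 100 footprint counts had a median of 0.66, with 14 higher and 2 lower, where 22.2% and 23% of the 17257 tested models with that many footprints were called. By mRNA class the median was 0.86 to 0.94 below 1000 CPM, 0.07 at 1000 to 10000 CPM and -0.06 at 10000 or more, and of the 15 members at 1000 CPM or more 1 was called higher and 1 lower, against 0.847% and 42.4% of the 118 models at that level.

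**Figure D4:**
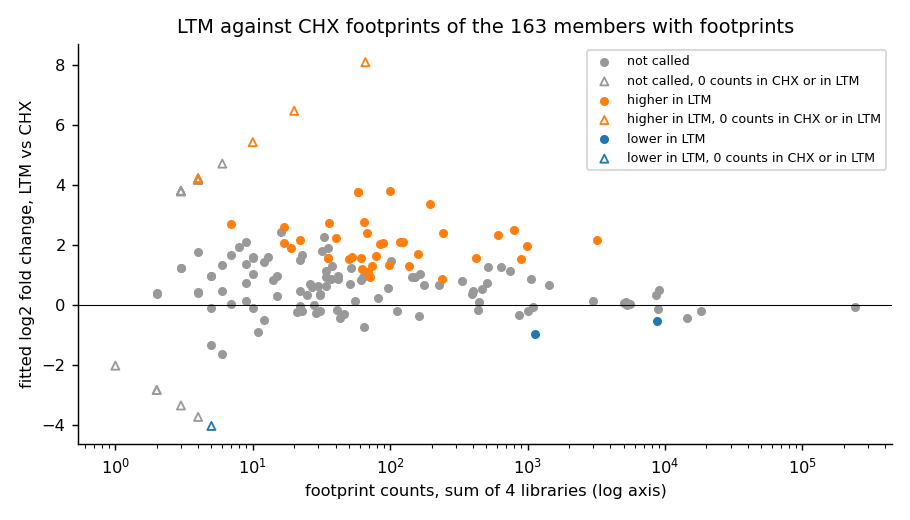
Fitted log2 fold change of LTM against CHX for the 163 members with footprints, against their footprint counts summed over 4 libraries (log axis), coloured by edgeR's call at an adjusted p under 0.05. Open triangles have 0 counts in one kind and values set by the fit's prior count, and the called members are 42 higher and 3 lower in LTM.

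The largest fitted increases belonged to members without CHX counts. Solyc01g095220.2.1 was at 109 and 159 CPM in mRNA, 0 counts in both CHX libraries, and 0.768 and 1.33 CPM in LTM from 66 counts. Its mean LTM level was 33.8-fold the limit of 3 counts in CHX (edgeR adjusted p = 0.000329 for LTM against CHX). Solyc02g082440.2.1 was at 557 and 514 CPM in mRNA, 0 counts in CHX, and 0.493 and 0.282 CPM in LTM from 20 counts. Its mean LTM level was 12.5-fold that limit (edgeR adjusted p = 0.00152 for LTM against CHX). Both folds are on library totals and leave out the counting error of the LTM counts. In both models the LTM libraries lay above CHX while staying under 1% of the mRNA level. The 37 called members with CHX counts had fitted changes from 0.88 to 3.80 on the log2 scale, and 5 called members had none in CHX.

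The 3 members lower in LTM were of unlike level. Solyc05g024245.1.1 was at 516 and 556 CPM in mRNA, 8.87 and 8.32 CPM in CHX and 5.81 and 5.00 CPM in LTM, which the fit put at -0.97 on the log2 scale (SE 0.17, edgeR adjusted p = 0.00288), with both LTM libraries below both CHX libraries. Solyc09g091100.3.1, the seventh member by mRNA, came to -0.55 on the log2 scale (SE 0.19, edgeR adjusted p = 0.0478), a call lost in 7 of 12 other settings, with total counts, with the 10 CPM filter and without any library other than LTM replicate 2. Solyc06g059805.1.1 was called (edgeR adjusted p = 0.0481) on 5 CHX counts and 0 LTM counts. Its CHX level of 0.0517 CPM is no higher than the 0.0524 CPM that 0 counts allow in LTM, and its call was lost in 10 of the 11 other settings that could test it.

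Members were unevenly placed among the ID blocks. Block 11 held 29 of the 178 (16.3%) against 6.73% of the 9179 models at the mRNA minimum, so that 4.69% of its 618 such models were members. Block 00, the unplaced sequence, held 16 members (8.99%) against 0.806% of the 9179, or 21.6% of its 74 such models. In block 12 it was 2.995% of 601, and in the other blocks between 0.759% (block 09, 5 members) and 1.99% (block 02, 18 members). Read share was placed otherwise, since it followed the leading members: block 05 held 11.9% and 8.04% of the mRNA libraries, block 11 held 4.53% and 3.30%, and block 00 held 0.191% and 0.187%.

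**Figure D5:**
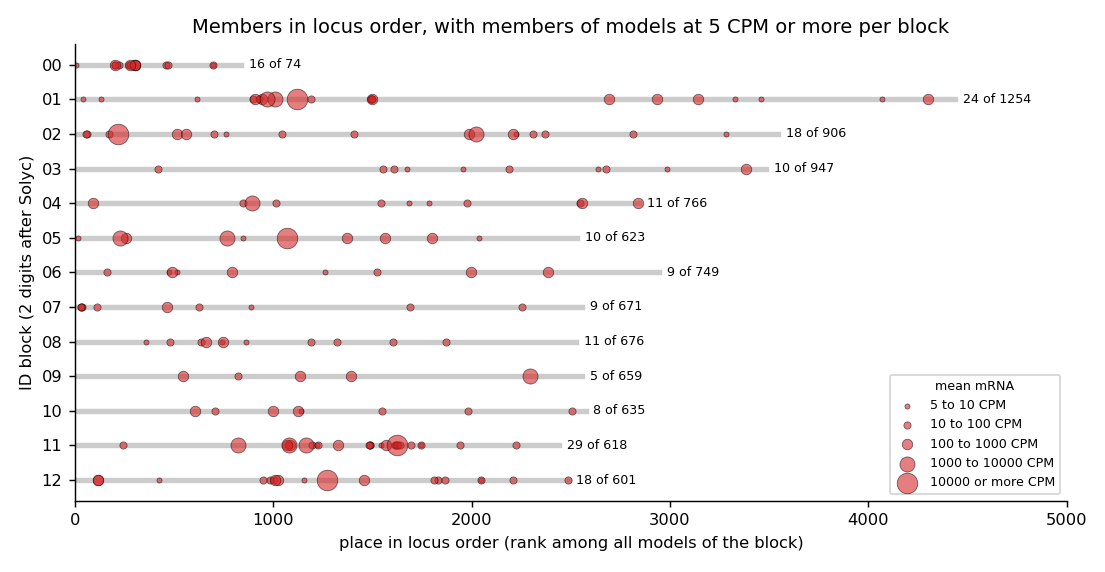
Place of the 178 members along each ID block, as the rank of the model among all models of the block in locus order, with larger points for higher mean mRNA level. Numbers at the right give members of models with at least 5 CPM in both mRNA libraries, from 5 of 659 in block 09 to 29 of 618 in block 11 and 16 of 74 in block 00.

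Along the locus order, 26 members (14.6%) stood directly next to another member, in 10 runs of 2 to 6 models. Of the 356 places next to a member, 32 (8.99%) held a member, where members are 0.498% of all models, and 134 (37.6%) held a model at the mRNA minimum, where such models are 25.7% of all. Members were thus 23.9% of the neighbours at the mRNA minimum, against 1.94% of all such models. Allowing 1 or 2 other models in between gave 30 and 37 members, and an order of models at the mRNA minimum alone gave 39 members in 15 runs. Neighbours may share sequence or reads, since the authors' treatment of reads with several matches is not given in the sources used here.

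The longest run held 6 models, from Solyc01g065593.1.1 to Solyc01g065640.2.1. Their mean mRNA levels lay between 45.9 and 105 CPM, their CHX levels between 0.134 and 0.507 CPM and their LTM levels between 0.183 and 1.52 CPM. The first had 87.5 and 80.6 CPM in mRNA, 0.349 and 0.355 CPM in CHX, and 0.877 and 1.23 CPM in LTM. The last had 76.3 and 58.7 CPM in mRNA, 0.349 and 0.188 CPM in CHX, and 0.219 and 0.795 CPM in LTM. All 6 were thus within a narrow range of mRNA, and all had fitted LTM against CHX changes above 0, of 0.33 to 1.57 on the log2 scale, with 3 called higher. The first was one of them (edgeR adjusted p = 0.00763), and without LTM replicate 2 it was not (edgeR adjusted p = 0.0905).

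A run of 3 in block 11 set a leading member beside scarce ones. It went from Solyc11g056320.1.1, with 54.3 and 57.8 CPM in mRNA, 0.144 and 0.481 CPM in CHX and 1.37 and 1.77 CPM in LTM, to Solyc11g056340.1.1 at 32774 and 21647 CPM in mRNA, and the model between them had a mean of 27.8 CPM. The first was called higher in LTM (2.08 on the log2 scale, SE 0.40, edgeR adjusted p = 0.00497). The model before this run had 40.3 and 42.2 CPM in mRNA, 0.431 and 1.32 CPM in CHX and 1.59 and 1.54 CPM in LTM, and missed the LTM limit.

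The run of 3 in block 00, from Solyc00g022100.1.1 to Solyc00g022107.1.1, had mRNA and CHX levels at its ends that were close to each other. Solyc00g022100.1.1 was at 439 and 425 CPM in mRNA, 0.821 and 2.01 CPM in CHX and 5.21 and 4.95 CPM in LTM. Solyc00g022107.1.1 was at 457 and 441 CPM in mRNA, 0.883 and 2.24 CPM in CHX and 3.40 and 3.13 CPM in LTM. The LTM level was higher in the first than in the second, and the model between them had a mean of 135 CPM in mRNA. Of the 3, 2 were called higher in LTM than in CHX, among them Solyc00g022100.1.1 (edgeR adjusted p = 0.00790) and not Solyc00g022107.1.1 (edgeR adjusted p = 0.110). Of the 7 runs of 2, the most abundant was a pair in block 12 with identical counts in all 6 libraries, at 351 and 482 CPM in mRNA, so their values cannot be told apart and are uncertain. It was the only such case among members with at least 100 counts, and counting it once leaves 177.

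Looser grouping was seen by the leading 3 digits after g, a grouping chosen after the values were seen. In 10 such stretches there were 3 or more members, 41 in all. In stretch 056 of block 11, 7 of 13 models at the mRNA minimum were members, with 6.41 to 27211 CPM. In stretch 065 of block 01 it was 6 of 14, in stretch 021 of block 11 it was 5 of 17, and in stretch 017 of block 01 it was 5 of 31. The unplaced stretches 020 and 022 held 3 of 3 each. In stretch 005 of block 07 the 3 members, at 15.6 to 22.8 CPM, all had log2 ratios of mRNA replicate 2 to replicate 1 between 0.63 and 0.75, above the 0.23 of models at large.

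The form of the identifiers differed too. Loci were first numbered in even steps, which left room for later additions. The last digit of the locus number was other than 0 in 42 members (23.6%), in 4.23% of the 9179 models at the mRNA minimum and in 13.7% of all models. The number after the first point, which counts the versions of a model, was 1 in 104 members (58.4%), 2 in 41 and 3 in 33 (18.5%). Among the 9179 models it was 1 in 11.7% and 3 in 67.7%, and among all models 1 in 36.1% and 3 in 40.2%. Of models at the mRNA minimum, 9.70% of those at version 1 were members, 2.20% at version 2 and 0.531% at version 3.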

How the data were processed

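Per the file headers, the authors deposited raw read counts per gene model for 6 libraries, taken from the coding region in CHX and LTM and from the transcript region in mRNA. Not given in the sources used here are the genome build and annotation, the aligner, how reads were counted and how multiply matching reads were handled. Groups and replicate numbers come from the sample titles. CPM was taken on library totals (18240140 to 48704200 counts), and members were found by the rule stated in the report, with its values given as mean ± SD of 2 libraries. The members, the rules and the grouping by locus order were chosen with earlier results of these data known.

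CHX and LTM against mRNA were used to choose the members and were not tested. LTM against CHX was tested with edgeR 4.0.16 (R 4.3.3, TMM factors, filterByExpr, which kept 20806 models, 1 quasi-likelihood model of all 6 libraries, two-sided, Benjamini-Hochberg adjustment over all models kept, threshold 0.05), with DESeq2 1.42.0 as an alternative. TMM takes most models as not different. The procedure was tested on simulated counts. Changes were placed there only in models above a minimum of expected CHX counts that most members do not reach, so the simulation does not cover those members. Intervals are exact Poisson 95% intervals of summed footprint counts over summed totals. Named are the 8 members with most mRNA, the ends of runs of 3 or more, the 2 called members with the largest change in each direction, and the 3 with most CHX. A planned grouping by annotation was not made for want of gene names.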

Additional observations from a re-analysis of the deposited data

How the results depend on the processing

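The fitted LTM against CHX changes of the 8 named members with a call kept their sign in every setting that tested them. The number of members was 297 with a minimum of 1 CPM and 122 to 253 in all other settings, and 164 to 194 when 1 library was left out. It was 204 with TMM-scaled sizes and 231 with totals that omit the 20 most abundant models, and all 178 were kept in both. The share of mRNA counts, 23.2% on average, was 12.6% with a limit of 1/64 and 14.2% without Solyc05g016120.2.1, which that limit removes, and 5.71% with the 20 most abundant models taken out of counts and totals. It was 27.1% without mRNA replicate 2 and 19.4% without mRNA replicate 1. Members next to a member numbered 17 with a limit of 1/64 and 21 to 32 when 1 library was left out.

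In LTM against CHX, total counts in place of TMM factors shifted the log2 ratio of the median model by 0.29 and called 69 members higher and 1 lower, with 5812 and 1228 over all models in place of 4654 and 4074. The members' median stayed 0.87 above that of all models under both. With at least 10 CPM in 2 libraries, where 139 members were tested, 1 was lower, and all models gave 2222 higher and 1717 lower. Leaving out 1 library gave 30 to 49 members higher and 1 to 3 lower, with 1 lower without mRNA replicate 1, mRNA replicate 2 or LTM replicate 1, while over all models the higher calls ran from 3585 to 4512 and the lower ones from 2482, without CHX replicate 1, to 3520. Each of these fits has 1 library fewer, and the cause was not tested further. Of the 8 named members with a call, 5 kept it in all 12 settings, Solyc01g065593.1.1 lost it in 1, Solyc09g091100.3.1 in 7 and Solyc06g059805.1.1 in 10 of 11. DESeq2 gave 48 members higher and 2 lower (4287 and 3604 of all models), and a replicate block 56 and 2 (5330 and 5297). Upper-quartile factors gave 35 and 4, and over all models 4292 higher and 5209 lower, so that lower calls outnumbered higher ones there. Replicate numbers are not said to pair libraries, and deviations of same-numbered libraries correlated at 0.207 to 0.356. Depth leaves only a limit for members at 0 counts.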

Other observations

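The model directly before the run of 6 in block 01 showed the reverse of the run. It had 0.0806 and 0.230 CPM in the mRNA libraries, 3.80 and 30.3 CPM in CHX, and 4.66 and 41.4 CPM in LTM, so both kinds of footprint were higher in replicate 2. Most of the 6 members beside it were also higher in LTM replicate 2, as at 0.219 and 0.795 CPM in the last, but higher in CHX replicate 1. In mRNA the 6 differed little between replicates, by -0.38 to 0.20 on the log2 scale. The model directly after the run had 0 counts in all 6 libraries. This model was looked at after the values were seen, and no cause was tested.

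The members whose mRNA libraries differed most were unlike in level. One member had 4854 and 2181 CPM in mRNA replicates 1 and 2, and another had 3206 and 1510. In the other direction one had 8.38 and 40.7 CPM and one had 47.5 and 163 CPM. These 4 were picked for that difference.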
